A study of Mus musculus with 6 samples.

Results

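The renin-angiotensin system was described here through 9 of its mouse genes, chosen by name: *Agt*, *Ren1*, *Atp6ap2*, *Ace*, *Enpep*, *Agtr1a*, *Agtr1b*, *Agtr2* and *Mas1*. All 9 were found among the 24421 gene rows of an expression matrix made from sorted aortic cells. The libraries came from mice of strain 129S6/SvEv at 8 weeks of age that carried a conditional CAG-Sun1/sfGFP tracer allele, which yields a green fluorescent nuclear envelope protein once Cre has acted. In 3 libraries the Cre allele was Mef2cSHF, which marks descendants of the second heart field (SHF), and in the other 3 it was Wnt1-Cre2, which marks descendants of the cardiac neural crest (CNC). Both groups shared the tracer, the strain, the age and the dissection of aortic root and ascending aorta, and living GFP+ cells were sorted from digested tissue. The 3 libraries of a lineage were biological replicates, and how many mice went into each was not stated in the sources used here. No treatment or engineered mutation was listed beside these alleles. A Cre allele of this kind marks a lineage and not a cell type, so each library could hold every aortic cell type that descends from that lineage. The comparison implied by the design is whether vascular cells of these embryonic origins, which meet in the proximal aorta, differed in transcript abundance.

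In the renin-angiotensin system, the protease renin cuts angiotensinogen to angiotensin I, and angiotensin-converting enzyme trims it to the octapeptide angiotensin II. Angiotensin II acts mainly through the type 1 receptor, a Gq-coupled receptor that raises vascular tone and drives matrix and growth responses, while the type 2 receptor and Mas are usually described as opposing it. The system is well known in the aortic wall, since angiotensin II infusion produces aneurysm in mice and blockers of the type 1 receptor are used in heritable aortic disease.

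Values are in TPM, a transcript abundance scaled for gene length and library total, so levels of different genes can be set beside each other. Values of a lineage are listed in the order of its replicates 1 to 3. Between 9255 and 11858 genes were above 0 in a library, and the sequencing depth behind these values is unknown. Fibroblast markers summed to 28807 to 53834 TPM per library and smooth muscle markers to 1356 to 3248 TPM. *Dcn*, a fibroblast matrix proteoglycan, alone reached 11604 to 14863 TPM, whereas *Acta2*, smooth muscle actin, stood at 956, 363 and 716 TPM in SHF and 418, 766 and 559 TPM in CNC. The sorted fractions therefore carried defining transcripts of both cell types, with the fibroblast list higher in every library. Sums of unlike lists do not give shares of cells: *Pdgfra*, another fibroblast marker, averaged 156 TPM, below *Acta2* at 630 TPM. The study described these sorted cells as lineage-traced vascular smooth muscle cells. SHF replicates 2 and 3 held *Xist*, which is transcribed from the inactive X chromosome of female cells, at 52.0 and 38.8 TPM, and the other 4 libraries listed it at 0. The Y-linked gene *Ddx3y* was listed at 0 in those 2 SHF libraries and lay between 42.2 and 61.3 TPM in the other 4. Libraries with *Xist* were thus found in SHF alone, and this split is given beside the 4 genes tested.

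The 9 genes fell into a few levels. *Atp6ap2* and *Ace* were abundant, *Agtr1a*, *Enpep* and *Ren1* were low and irregular, *Mas1* appeared in a single library, and *Agt*, *Agtr1b* and *Agtr2* were listed at 0 in all 6. Above 5 TPM in all 6 libraries stood 2 of the 9 genes, against 16.8% of all gene rows. Listed at 0 in all 6 were 3 of the 9, against 41.9% of all gene rows. *Atp6ap2* and *Ace* together supplied 90.5% to 99.9% of the summed TPM of the 9 genes, a sum that was 488, 542 and 481 TPM in the SHF libraries and 705, 788 and 614 TPM in the CNC libraries.

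**Figure D1:**
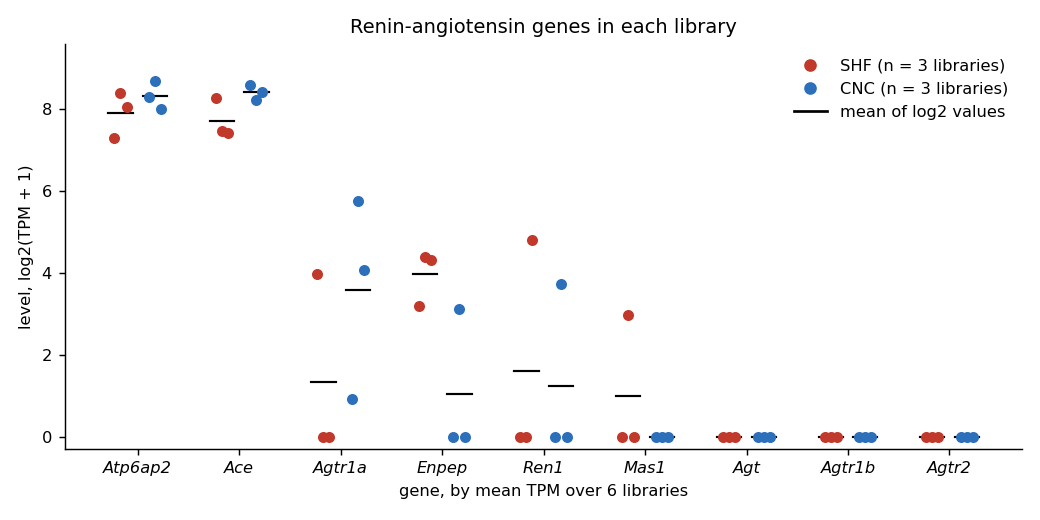
Level of each renin-angiotensin gene in TPM on a log scale of TPM + 1, with a point for each of the 3 SHF and 3 CNC libraries. *Atp6ap2* and *Ace* sit between 156 and 416 TPM in every library, *Agtr1a* ranges from 0 to 52.8 TPM, and *Agt*, *Agtr1b* and *Agtr2* lie at 0 throughout.

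Ordered by mean TPM over the 6 libraries, *Atp6ap2* (291 TPM) was followed by *Ace* (281), *Agtr1a* (14.0), *Enpep* (9.17), *Ren1* (6.54) and *Mas1* (1.14). *Atp6ap2* and *Ace* did not differ beyond their spread: *Atp6ap2* was the higher in 3 of 6 libraries, with a mean within-library difference of 0.05 in log2(TPM + 1) (exact two-sided sign-flip test, p = 0.844). The widest step lay between *Ace* and *Agtr1a*, where *Ace* was higher in 6 of 6 libraries by 5.62 ± 2.20 in log2(TPM + 1) (SD, n = 6; exact sign-flip p = 0.0313, the smallest that 6 libraries can give, and 0.156 after Benjamini-Hochberg adjustment over the 5 neighbouring pairs). *Agtr1a* against *Enpep*, *Enpep* against *Ren1* and *Ren1* against *Mas1* had exact p-values of 0.969, 0.5 and 0.5, so their order was not resolved. The order of the means also turned with lineage: *Enpep* averaged above *Agtr1a* in SHF and below it in CNC, and *Atp6ap2* averaged above *Ace* in SHF and below it in CNC.

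The DNA before the start sites is shown first for the abundant genes *Ace* and *Atp6ap2*, the low genes *Enpep* and *Ren1* and *Agt*, listed at 0, to set these levels beside each other. The stretches are the 250 bases before each RefSeq start site in GRCm38.p6, read 5′ to 3′ on the gene's own strand, and the capitals mark TATAAA and GGGCGG on either strand, which are core letters of a TATA box and of a GC box. The *Ace* start of the long, somatic form is at chr11:105967698-105967947 (+), a second *Ace* start inside the gene is at chr11:105974939-105975188 (+), *Atp6ap2* is at chrX:12587509-12587758 (+), *Enpep* at chr3:129332750-129332999 (-), *Ren1* at chr1:133350424-133350673 (+) and *Agt* at chr8:124569707-124569956 (-).
Ace, first start: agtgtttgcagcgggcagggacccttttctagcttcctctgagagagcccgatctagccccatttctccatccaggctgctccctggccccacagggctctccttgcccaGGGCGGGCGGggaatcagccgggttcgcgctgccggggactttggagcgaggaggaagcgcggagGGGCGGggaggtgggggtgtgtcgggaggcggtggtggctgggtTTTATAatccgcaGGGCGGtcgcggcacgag
Ace, second start: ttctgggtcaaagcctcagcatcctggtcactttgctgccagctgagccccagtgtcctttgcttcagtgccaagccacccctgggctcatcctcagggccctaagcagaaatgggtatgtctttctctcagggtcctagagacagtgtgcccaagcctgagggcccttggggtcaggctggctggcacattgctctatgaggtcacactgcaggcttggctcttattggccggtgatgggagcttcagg
Atp6ap2: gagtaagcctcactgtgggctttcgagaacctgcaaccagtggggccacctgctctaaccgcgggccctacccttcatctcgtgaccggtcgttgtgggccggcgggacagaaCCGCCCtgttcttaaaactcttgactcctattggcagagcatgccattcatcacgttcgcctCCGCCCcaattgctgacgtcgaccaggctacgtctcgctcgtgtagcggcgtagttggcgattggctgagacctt
Enpep: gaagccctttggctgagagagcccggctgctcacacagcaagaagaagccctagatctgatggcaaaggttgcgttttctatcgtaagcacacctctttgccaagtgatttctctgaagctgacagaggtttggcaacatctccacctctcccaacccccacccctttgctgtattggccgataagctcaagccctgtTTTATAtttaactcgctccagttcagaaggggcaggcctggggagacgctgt
Ren1: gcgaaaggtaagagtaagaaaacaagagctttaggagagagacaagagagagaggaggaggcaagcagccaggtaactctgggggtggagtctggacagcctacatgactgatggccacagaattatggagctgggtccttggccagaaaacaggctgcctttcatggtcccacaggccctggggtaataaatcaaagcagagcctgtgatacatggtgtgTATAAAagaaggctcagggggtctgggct
Agt: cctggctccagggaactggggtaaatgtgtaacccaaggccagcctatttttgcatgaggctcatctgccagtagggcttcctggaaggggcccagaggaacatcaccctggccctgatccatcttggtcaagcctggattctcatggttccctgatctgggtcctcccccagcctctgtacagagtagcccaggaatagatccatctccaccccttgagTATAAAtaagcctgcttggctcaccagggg

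Among 32851 promoter windows of this length, 12.4% held TATAAA and 32.7% held GGGCGG on either strand, and the median window had 6 CG dinucleotides. *Atp6ap2* had 20 CG dinucleotides and 2 GGGCGG matches, and the first *Ace* start had 19 CG dinucleotides, 4 GGGCGG matches and a TATAAA match on the opposite strand. At least as many CG dinucleotides as these were found in 17.9% and 19.7% of all windows. By contrast, *Ren1* had 1 CG dinucleotide and *Agt* had 0, with TATAAA 29 and 30 bases before the start. *Enpep* had 6 CG dinucleotides and a TATAAA match on the opposite strand at 52 bases, and the second *Ace* start had 1 CG dinucleotide and neither motif. *Agtr1b*, *Agtr2* and *Mas1* had 5, 3 and 2 CG dinucleotides; *Agtr1b* had a TATAAA match 31 bases before its start, and *Agtr2* and *Mas1* had neither motif. These matches are letters in a window, and no binding was measured.

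Angiotensinogen, the secreted precursor from which every angiotensin peptide is cut, is encoded by *Agt* at chr8:124556534-124569706 (GRCm38, minus strand). It was listed at 0 TPM in each of the 3 SHF and 3 CNC libraries. Adipocytes and fibroblasts around vessels are known sources of this precursor. Of 8 adipocyte markers, 6 were listed at 0 in all 6 libraries, among them *Adipoq*, *Lep* and *Cfd*, and the adipocyte sum ran from 30.8 to 69.9 TPM in SHF and from 0 to 47.5 TPM in CNC. That sum came from *Fabp4* and *Plin1*. *Fabp4* stood at 30.8, 42.3 and 69.9 TPM in SHF and 45.8, 23.2 and 0 TPM in CNC. *Plin1* held 24.4 TPM in CNC replicate 2 alone. The fibroblast markers, by contrast, were the highest of the marker lists in every library, at 28807 TPM or more.

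*Ren1*, on chr1:133350510-133360325, encodes renin, the aspartyl protease that starts the cascade and is made mainly by kidney juxtaglomerular cells. The row held 26.9 TPM for SHF replicate 3, 12.3 TPM for CNC replicate 2, and 0 for the other 4 libraries. There was thus 1 library with a value in each lineage (exact permutation p = 1). *Ren2*, the near-identical duplicate that 129 strains carry and the C57BL/6 reference strain lacks, had values in the same 2 libraries, 0.88 and 2.20 TPM, and was otherwise listed at 0. Reads of this pair can be shared out between the rows by the estimation step, so the split between *Ren1* and *Ren2* is uncertain.

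*Atp6ap2* encodes the (pro)renin receptor, which binds renin and its precursor and is also an accessory subunit of the vacuolar proton pump. The gene lies on the X chromosome at 12587801-12617049. It measured 156, 338 and 264 TPM in SHF and 315, 416 and 256 TPM in CNC. The lineages overlapped, with SHF replicate 1 lowest and CNC replicate 2 highest. Means were 253 ± 91.4 TPM in SHF and 329 ± 81.2 TPM in CNC (SD, n = 3), and the difference in log2(TPM + 1), SHF minus CNC, was -0.42 (SE 0.37, 95% interval -1.24 to 0.40; limma adjusted p = 0.896; exact permutation p = 0.5). The libraries with *Xist* spanned 264 to 338 TPM and the other 4 spanned 156 to 416 TPM. A fit with *Xist* above 5 TPM as a term was chosen after the data were seen. Its lineage estimate rests on SHF replicate 1 alone, and the *Atp6ap2* difference was -1.04.

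Of the enzymes *Ace* and *Enpep*, *Ace* was the more abundant in every library. *Ace* (chr11:105967945-105989964) encodes angiotensin-converting enzyme, the membrane dipeptidase that makes angiotensin II and degrades bradykinin. It stood at 309, 177 and 171 TPM in SHF and 389, 299 and 342 TPM in CNC. SHF replicate 1 lay inside the CNC range, and the other 2 SHF libraries lay below it. Means were 219 ± 77.8 TPM in SHF and 344 ± 45.0 TPM in CNC (SD, n = 3), a ratio of 1.57 of CNC over SHF. The difference in log2(TPM + 1) was -0.69 (SE 0.35, 95% interval -1.45 to 0.07; limma p = 0.0694 unadjusted and 0.874 adjusted over all genes; exact permutation p = 0.2), so it did not pass the test. Over 16 alternative fits the unadjusted limma p of *Ace* was under 0.05 in 2, and the 95% interval held 0 in 14. The lowest limma adjusted p among them was 0.518.

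The *Ace* values also divided along the *Xist* line, with 171 to 177 TPM in the 2 libraries that held *Xist* and 299 to 389 TPM in the other 4. With *Xist* as a term, where the lineage estimate rests on SHF replicate 1 alone, the *Ace* difference was -0.15. Without SHF replicate 1, the lineages did not overlap for *Ace*, at 171 to 177 TPM against 299 to 389 TPM, as was the case for 25.01% of all tested genes without that library. The part of sex in the *Ace* values was not tested further. In GENCODE M21, 295 of the 5287 exon bases of *Ace* (5.58%) are shared with exons of the antisense gene *Gm11651*, whose row held 1.07 to 2.97 TPM, and without strand in the library protocol reads from these bases cannot be told apart.

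*Enpep* encodes aminopeptidase A, the membrane enzyme that removes the first residue of angiotensin II to give angiotensin III. The gene lies at chr3:129269175-129332720 on the minus strand. It stood at 8.15, 20.1 and 19.0 TPM in SHF, at 7.73 TPM in CNC replicate 2, and was listed at 0 in CNC replicates 1 and 3. Every SHF library was above every CNC library, although SHF replicate 1 exceeded CNC replicate 2 by little. Among the 4 genes of the set that passed the filter of 1 TPM in at least 3 libraries, this was the 1 whose lineages did not overlap, where 11.8% of all tested genes did not overlap and 6.11% were higher in every SHF library. Since *Enpep* reached the filter through its 3 SHF libraries and a single CNC library, the separation is given as a description.

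The difference of *Enpep* in log2(TPM + 1), SHF minus CNC, was 2.93 (SE 1.33, 95% interval 0.01 to 5.85; limma p = 0.0492 unadjusted and 0.845 adjusted over all genes; exact permutation p = 0.1, the smallest that 3 against 3 libraries allow). Since the filter was met through SHF, these values do not add support to the separation. Over 16 alternative fits the unadjusted limma p of *Enpep* ran from 0.0138 to 0.287, and the 95% interval held 0 in 12 of them. In the bulk of a sorted fraction, fewer cells of a type and less RNA per cell cannot be told apart. The 10 endothelial markers summed to 302, 858 and 633 TPM in SHF and 336, 241 and 248 TPM in CNC, so SHF replicate 1 lay within the CNC range. Of the 7 markers tested, 5 were higher by value in SHF and 2 in CNC, and *Eng*, the most abundant, had a difference of -0.23 in log2(TPM + 1). *Cdh5*, the endothelial cadherin, stood at 5.94, 17.2 and 24.6 TPM in SHF and was listed at 0 in all 3 CNC libraries. *Pecam1*, the endothelial adhesion molecule CD31, stood at 31.4, 148 and 142 TPM in SHF and 9.72, 37.9 and 19.8 TPM in CNC. *Enpep* and the endothelial sum were both highest in SHF replicates 2 and 3, while within CNC the sum was lowest in replicate 2, where *Enpep* had its value. SHF replicates 2 and 3 were also the libraries with *Xist*, so *Enpep* stood at 19.0 to 20.1 TPM with *Xist* and at 0 to 8.15 TPM in the other 4. With *Xist* as a term, where the lineage estimate rests on SHF replicate 1 alone, the *Enpep* difference was 2.15. The 8 leukocyte markers summed to 283, 387 and 178 TPM in SHF and 79.6, 352 and 19.5 TPM in CNC, so within CNC this sum was highest in replicate 2. Its highest gene in every library was *Cd74*, an antigen presentation chaperone, while *Ptprc*, *Adgre1* and *Cd3e* were listed at 0 in all 6 libraries. The 7 cardiomyocyte markers summed to 119, 87.4 and 144 TPM in SHF and 92.1, 0.73 and 0 TPM in CNC, and the 7 pericyte markers to 383, 626 and 275 TPM in SHF and 532, 590 and 701 TPM in CNC, with overlap between the lineages in both. The part of these cell types in the *Enpep* values was not tested.

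The receptor genes were low or listed at 0. *Agtr1a* (chr13:30336441-30382867) encodes the type 1a receptor, the main angiotensin II receptor of rodent vessels. SHF replicate 1 held 14.7 TPM, SHF replicates 2 and 3 were listed at 0, and the CNC libraries held 0.90, 52.8 and 15.9 TPM. It was thus above 0 in 1 of 3 SHF libraries and 3 of 3 CNC libraries, and SHF replicate 1 fell within the CNC range. Inside CNC alone the highest library was 58.6 times the lowest. The difference in log2(TPM + 1) was -2.26 (SE 1.63, 95% interval -5.85 to 1.33; limma adjusted p = 0.887; exact permutation p = 0.2). The libraries with *Xist* were those at 0. With *Xist* as a term, where the lineage estimate rests on SHF replicate 1 alone, the *Agtr1a* difference turned to 0.39.

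Zeros in some libraries also occurred in other genes at such levels. Among 4056 genes with a mean of 5 to 20 TPM, 37.4% were above 0 in all 6 libraries and 35.8% were above 0 in 4 or fewer, as *Agtr1a* and *Enpep* were, but 5.72% were above 0 in 2 or fewer, as *Ren1* was. Of 2748 genes with a mean of 1 to 5 TPM, 12.8% were above 0 in all 6. A value of 0 for a receptor therefore could not be read as absence.

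*Agtr1b* (chr3:20314473-20367177), the rodent duplicate of the type 1 receptor known mainly from adrenal and pituitary, was listed at 0 in all 6 libraries. The coding sequences of *Agtr1a* and *Agtr1b* are both 1080 bases long in GENCODE M21, and 981 of their bases (90.8%) are identical in alignment. Their longest shared run, shown because a read inside it fits both genes, is bases 75 to 140 of the *Agtr1a* coding sequence.
Agtr1a and Agtr1b, shared: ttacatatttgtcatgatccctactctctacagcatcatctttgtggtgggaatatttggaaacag
Of the 1031 windows of 50 bases in the *Agtr1a* coding sequence, 33 (3.2%) also occur in *Agtr1b*, so most positions tell the genes apart. *Agtr2* and *Mas1* are more distant, at 49.5% and 49.9% identity with *Agtr1a* and no shared window.

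*Agtr2*, the X-linked type 2 receptor at 21484544-21489164 that is prominent in fetal tissue, was listed at 0 in all 6 libraries. *Mas1* (chr17:12841079-12868143), the receptor for the shorter angiotensin peptides, had 6.81 TPM for SHF replicate 2 and 0 for the other 5 libraries. Of the 4 receptor genes, then, *Agtr1a* was the 1 with values in more than a single library.

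Across the whole table, limma called 0 of 10185 genes between the lineages (0%) at an adjusted p under 0.05, with 597 genes (5.86%) under 0.05 before adjustment, and so 0 of the 4 renin-angiotensin genes tested. The study also filtered for genes exclusive to a lineage at a threshold of 5 TPM. Read here as over 5 TPM throughout a lineage and 0 throughout the other, 0 of the 9 genes met it, where 0.139% of all gene rows did. The other 5 genes did not reach the filter for the test.

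**Figure D2:**
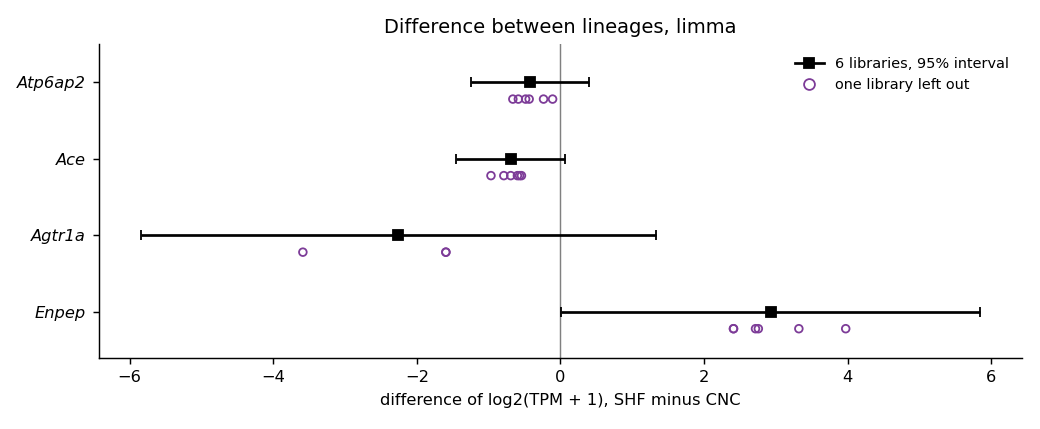
Difference in log2(TPM + 1), SHF minus CNC, for the 4 renin-angiotensin genes tested, with the 95% interval from limma on 6 libraries (squares and bars) and the estimate with each library left out (open circles). *Atp6ap2*, *Ace* and *Agtr1a* have intervals that hold 0, *Enpep* starts at 0.01, and *Agtr1a* has 3 circles because it was below the filter in the other 3 fits.

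The balance between the abundant genes varied within each lineage. *Ace* made up 63.3%, 32.7% and 35.5% of the summed TPM of the 9 genes in SHF and 55.2%, 38.0% and 55.8% in CNC. *Atp6ap2* made up 32.05%, 62.3% and 54.9% in SHF and 44.7%, 52.8% and 41.7% in CNC. *Ace* led in SHF replicate 1 and CNC replicates 1 and 3, and *Atp6ap2* led in the others, so both orders occurred in both lineages.

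**Figure D3:**
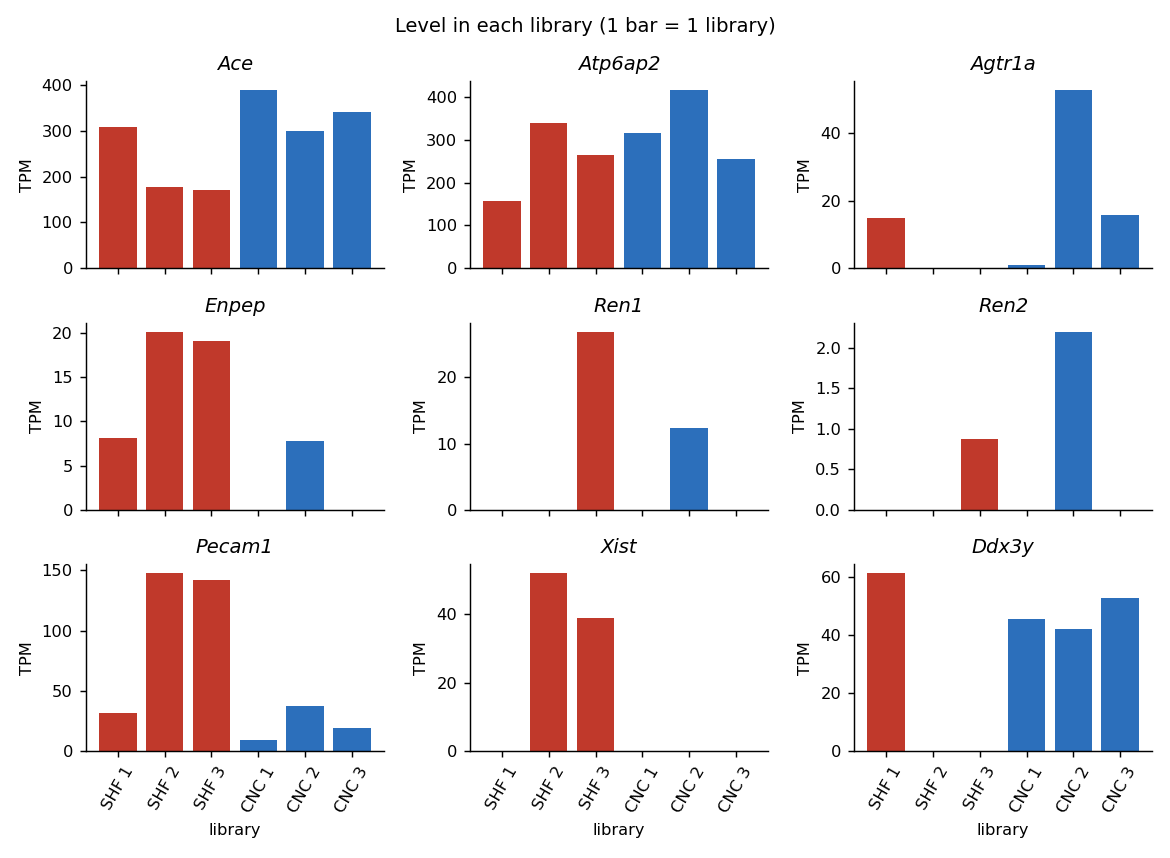
TPM of *Ace*, *Atp6ap2*, *Agtr1a*, *Enpep*, *Ren1*, *Ren2*, *Pecam1*, *Xist* and *Ddx3y* in each of the 6 libraries. *Agtr1a* is highest in CNC replicate 2 at 52.8 TPM, *Enpep* is highest in SHF replicates 2 and 3 at 20.1 and 19.0 TPM, and *Ren1* has values in SHF replicate 3 and CNC replicate 2 only.

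Of the libraries' genes that most resembled each tested member across the 6 libraries, the 3 with the highest Pearson r of log2(TPM + 1) are named as a description. For *Ace* these were *Parp12*, *Zcchc4* and *Slc26a2* (r = 0.997, 0.997 and 0.996), and 110 genes exceeded 0.95. For *Agtr1a* they were *Capza2*, *Dnm3* and *Ero1lb* (r = 0.998, 0.997 and 0.995), with 105 genes above 0.95. For *Enpep* they were *Cd83*, *Scin* and *Selp* (r = 0.998, 0.995 and 0.990), with 50 above 0.95. *Atp6ap2* had fewer close matches, with *4933409K07Rik*, *Dnm1l* and *Hibadh* at 0.957, 0.953 and 0.943 and 2 genes above 0.95. With 6 points that share library and depth, such r values are reached by many genes.

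Other genes of the pathway were taken from 7 lists with 88 genes in all, of which 59 were tested and 0 passed in either direction. Among 16 angiotensin-processing enzymes, 9 were tested, 4 higher in SHF and 5 higher in CNC, with a median difference of -0.23 in log2(TPM + 1), where the median of all tested genes was 0.02. Leaving out SHF replicate 1 turned the list median to 0.21, leaving out CNC replicate 1 turned it to 0.02, and it was -0.05 without SHF replicate 3. *Ctsd*, the lysosomal aspartyl protease cathepsin D, stood at 912, 472 and 647 TPM in SHF and 863, 950 and 993.7 TPM in CNC, and the lineages overlapped. *Ctsa*, a lysosomal carboxypeptidase, averaged 107 ± 28.5 TPM in SHF and 172 ± 51.4 TPM in CNC (SD, n = 3). *Anpep*, aminopeptidase N, which takes angiotensin III further, averaged 82.5 ± 31.5 TPM and 102 ± 25.3 TPM. *Anpep* was thus above *Enpep* in every library. *Prep*, a prolyl endopeptidase chosen after its values were seen, was the 1 gene of the 9 tested without overlap, where 11.8% of all tested genes had none, at 29.7, 42.5 and 40.6 TPM in SHF and 22.6, 3.21 and 10.4 TPM in CNC (limma adjusted p = 0.874).

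In the same list, *Cma1*, *Mcpt4* and *Cpa3*, the mast cell proteases that can form or trim angiotensin, were listed at 0 in all 6 libraries and are also named after their values were seen. The mast cell list holds these 3 proteases, and of its other 4 markers *Ms4a2* and *Fcer1a* were also listed at 0 throughout. Its sum was 0 to 20.6 TPM in SHF and 0 in CNC.

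Downstream of the type 1 receptor, 18 of 21 receptor partners and Gq signalling genes were tested, with 13 higher in SHF, 5 higher in CNC and a median difference of 0.47. That median was 0.11 without CNC replicate 1, 0.26 without SHF replicate 2, 0.30 without SHF replicate 3 and 0.76 without SHF replicate 1, over the 16 to 18 genes still tested. *Rgs5*, which shortens Gq signals and also marks pericytes, stood at 89.7, 311 and 66.2 TPM in SHF and 117, 139 and 93.0 TPM in CNC. *Arhgef1*, a guanine nucleotide exchange factor, and *Gna11*, a Gq-family subunit, had differences of 0.47 each. Of the 18 genes, 3 were without overlap, beside 11.8% of all tested genes. They were *Plcb3*, a phospholipase, and *Rock1*, a serine/threonine kinase, which were higher in every SHF library by 1.22 and 1.43, and *Rock2*, its relative, which was lower in every SHF library with a difference of -1.81 (limma adjusted p of at least 0.874 for each of the 3, which were named after their values were seen).

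In the NADPH oxidase list, the source of superoxide below the receptor, 4 of 11 genes were tested and the median difference was -0.37. It turned to 0.07 without SHF replicate 2 and was -0.14 and -0.22 without CNC replicates 2 and 3, each over 3 genes, since 1 gene then fell below the filter. With no filter on low values it was -0.08 over 8 genes. *Nox4*, the oxidase of vessel wall cells, stood at 81.4, 75.8 and 99.9 TPM in SHF and 77.0, 165 and 114 TPM in CNC. *Rac1* averaged 205 TPM in SHF and 276 TPM in CNC, and *Cyba*, which encodes the p22phox subunit, 204 and 142 TPM. *Nox4*, *Rac1* and *Cyba* were above 0 in all 6 libraries. Each receptor gene was listed at 0 in some or all of them, which could not be read as absence.

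All 10 genes of the angiotensin II responsive list were tested, with 8 higher in SHF, 2 higher in CNC and a median difference of 0.83. *Nr4a1*, an immediate early nuclear receptor, stood at 1916, 453 and 1174 TPM in SHF and 634, 422 and 647 TPM in CNC. *Ctgf*, a matrix-associated growth factor, stood at 1998, 376 and 547 TPM in SHF and 534, 589 and 659 TPM in CNC, and *Ccl2*, a monocyte chemokine, at 885, 74.9 and 232 TPM in SHF and 108, 150 and 177 TPM in CNC. Each of the 3 was highest in SHF replicate 1, and without that library the list's median was -0.25 over the 8 genes still tested, and without SHF replicate 2 it was 1.55 over 9. Several of these genes are also known to respond to tissue dissociation. *Thbs1*, which encodes thrombospondin-1 and was named after its values were seen, was the 1 gene of these 10 without overlap, beside the same 11.8% of all tested genes, at 504, 545 and 98.7 TPM in SHF and 66.0, 76.3 and 49.4 TPM in CNC (difference 2.24, SE 0.61; limma adjusted p = 0.548). *Edn1*, which encodes the vasoconstrictor endothelin 1 and was also named after its values were seen, had the opposite sign at -3.08 (SE 1.35; limma adjusted p = 0.821).

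The remaining lists stand beside the members that belong to them. The kinin system, in which *Ace* removes bradykinin, had 2 of 8 genes tested: the receptor gene *Bdkrb1* stood between 0 and 30.6 TPM, the aminopeptidase gene *Xpnpep2* between 0 and 24.98 TPM, and *Bdkrb2* had a value in SHF replicate 1 only, 7.99 TPM. In the aldosterone arm 1 of 7 genes was tested, *Sgk1*, a kinase induced by mineralocorticoids and glucocorticoids, at 259, 146 and 168 TPM in SHF and 54.6, 122 and 146 TPM in CNC. *Nr3c2*, the mineralocorticoid receptor, reached 10.9 TPM at most and *Hsd11b2* 13.7 TPM.

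All 15 V-ATPase genes, the pump with which the *Atp6ap2* protein associates, were tested, with 9 higher in SHF, 6 higher in CNC and a median difference of 0.02, which ran from -0.15 without CNC replicate 1 to 0.23 without SHF replicate 3. *Atp6v0e*, *Atp6v0c* and *Atp6v1f*, its most abundant subunits, had differences of 0.23, -0.28 and 0.68. *Atp6v1g1*, named after its values were seen, was the 1 gene of the 15 without overlap, beside 11.8% of all tested genes, at 221.2, 350 and 303 TPM in SHF and 219, 173 and 220.8 TPM in CNC (limma adjusted p = 0.880). *Atp6ap1*, the other accessory subunit, likewise named after its values were seen, stood at 272, 44.0 and 109 TPM in SHF and 258, 229 and 207 TPM in CNC. The ratio of *Atp6ap2* to *Atp6ap1* therefore ran from 0.576 to 7.68 in SHF and from 1.22 to 1.82 in CNC.

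**Figure D4:**
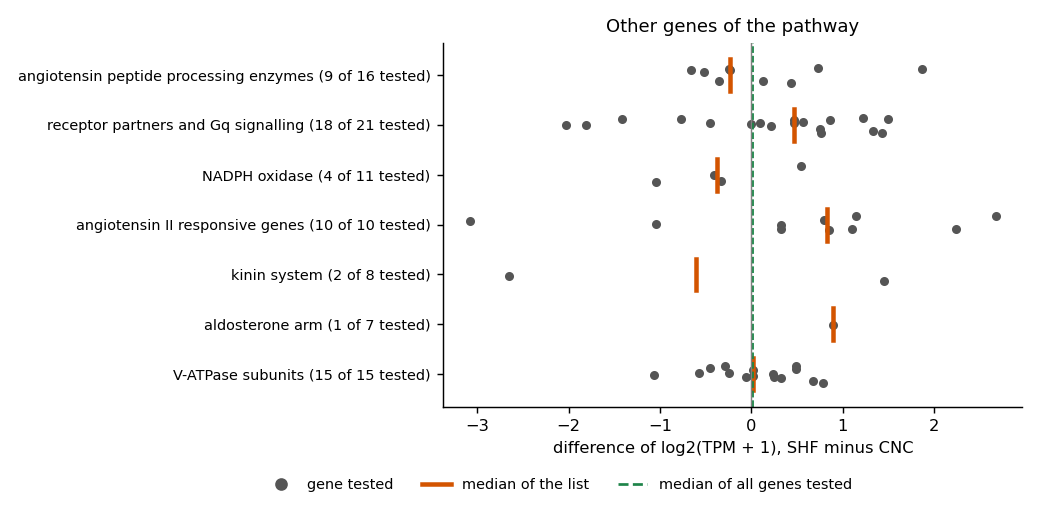
Difference in log2(TPM + 1), SHF minus CNC, of each tested gene in 7 lists of the wider pathway (points), with the median of each list (orange bars) and the median of all tested genes (dashed line, 0.02). The median is 0.83 for the angiotensin II responsive genes and 0.02 for the V-ATPase subunits, and 0 of the 59 genes passed the adjusted threshold.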

How the data were processed

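The authors sorted GFP+ cells, amplified RNA by SmartSeq2, made Nextera XT libraries and deposited one table of TPM values, estimated with RSEM 1.2.25 and Bowtie2 on mm10 per the submitters' processing notes; the gene annotation was not given in the sources used here. TPM keeps no read counts, so depth is unknown and the number of libraries limits precision. All 6 columns matched a library by name.

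The filter for testing was 1 TPM or more in 3 libraries or more, and genes were compared on log2(TPM + 1) with limma 3.58.1 in R 4.3.3 (empirical Bayes with a trend, Benjamini-Hochberg over all 10185 genes), tested on simulated data. Exact two-sided permutation tests used scipy 1.17.1. Start sites came from RefSeq (GRCm38.p6), gene positions from GENCODE M21; 8 of the 9 genes had a RefSeq promoter entry. The members and lists were chosen with earlier results of these data known. Named were the 9 members, the 3 most abundant genes of each list, defining markers and the 3 genes most like each tested member; other genes were named after their values were seen. Alternatives were other pseudocounts, filters, scalings, a replicate block and leaving out each library.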

Additional observations from a re-analysis of the deposited data

How the results depend on the processing

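Under 10 other settings and with each of the 6 libraries left out, 0 renin-angiotensin genes and 0 genes of the pathway lists passed an adjusted p of 0.05 in limma. Over all genes the count was 0 except for 1 with a pseudocount of 5, *Gm13305*, which was higher in CNC and is named after its value was seen. The signs of *Atp6ap2*, *Ace* and *Enpep* held in all 16 fits, with log2 differences of -1.04 to -0.11, -0.97 to -0.15 and 1.55 to 5.10. The *Enpep* ends came from pseudocounts of 5 and 0.1, so they are not on the scale of log2(TPM + 1). On that scale, with a library left out, *Enpep* ran from 2.41 to 3.97. *Agtr1a* lay between -4.16 and -1.28, ends that came from pseudocounts of 0.1 and 5, except with *Xist* above 5 TPM as a term. With that term, chosen after the data were seen, every lineage estimate rests on SHF replicate 1 alone. *Agtr1a* was then 0.39 and the median of all tested genes was 0.26. *Agtr1a* was below the filter without SHF replicate 1, CNC replicate 2 or CNC replicate 3. The causes were not tested. With that term the list medians were 1.88 for the angiotensin II responsive genes, -0.04 for the processing enzymes and -0.13 for the NADPH oxidase list, and with library weights the enzyme median was 0.05 and that of the receptor partners 0.20. Over these fits the lowest limma adjusted p of the 4 renin-angiotensin genes tested was 0.518.

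The count of renin-angiotensin genes without overlap was 2 with median-of-ratios rescaling, where *Ace* joined *Enpep*, and 1 to 3 with a library left out. Of all tested genes 11.8% did not overlap after the rescaling, and 20.1% to 25.01% did not with a library left out. It was 3 without SHF replicate 1 (*Ace*, *Enpep* and *Agtr1a*), 2 without CNC replicate 1 (*Enpep* and *Agtr1a*) and 2 without CNC replicate 2 (*Ace* and *Enpep*). Genes exclusive to a lineage numbered 0 to 1 with a library left out, the 1 being *Enpep* without CNC replicate 2, where 0.377% of all gene rows met the rule. With the replicate number as a block, 0 genes passed, and the differences were -0.42 for *Atp6ap2*, -0.69 for *Ace*, 2.93 for *Enpep* (limma adjusted p = 0.887) and -2.26 for *Agtr1a*. Libraries with the same number had correlations of deviations from -0.011 to -0.004, so the numbers were not taken as pairs.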

Other observations

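Fibroblast transcripts, like *Ace*, were higher by value in CNC. The 10 fibroblast markers summed to 28807 to 31789 TPM in SHF and 39896 to 53834 TPM in CNC. *Pi16*, which marks adventitial fibroblasts, stood at 802, 339 and 917 TPM in SHF and 1932, 1456 and 1168 TPM in CNC. *Pdgfra*, a receptor of fibroblasts, stood at 83.8, 97.4 and 216 TPM in SHF and 101, 247 and 188 TPM in CNC. Schwann cell markers summed to 1.5 to 15.3 TPM in SHF and 21.4 to 94.4 TPM in CNC. Their part in the *Ace* and *Agtr1a* values was not tested.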
